A study of Mus musculus with 12 samples.

Results

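A set of 8 genes of the calbindin and neuronal calcium sensor families was followed across the adult mouse hippocampus: Calb1, Calb2, Hpca, Hpcal1, Hpcal4, Ncald, Vsnl1 and Necab1. They were taken by gene symbol from the deposited table of unique molecular identifier (UMI) counts, in which 8 of 32546 genes carry these symbols. The transcriptomes came from photo-isolation chemistry (PIC), a method in which reverse transcription primers carry a light-sensitive cage, so that cDNA from an irradiated area of a section can be amplified while cDNA from the rest of the section cannot. CA1, CA3 or the dentate gyrus (DG) was irradiated in sections from male ICR mice, an outbred stock, aged 8 weeks. Each of 12 libraries held 4 biological replicates of 1 region in 1 condition, which gave 48 replicates.

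The 4 conditions differed in fixation, embedding and permeabilization. Frozen tissue with no prior fixation was permeabilized either with 0.1 N HCl, which took 5 min (fresh-frozen HCl), or with TE buffer held at 70 °C over 1 h (fresh-frozen TE). Tissue fixed with 4% paraformaldehyde and then frozen (fixed frozen TE) or embedded in paraffin (paraffin TE) was permeabilized with TE buffer. By the study's protocol all sections, the fresh-frozen ones included, met paraformaldehyde on the slide before permeabilization. An irradiated area holds all cell types in it, and in such bulk samples fewer cells of a type and less RNA per cell cannot be told apart.

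All 8 proteins carry EF-hands, paired helices around a short acidic loop that holds a calcium ion. Calbindin (Calb1) and calretinin (Calb2) are cytosolic proteins classed mainly as calcium buffers: dentate granule cells are known for calbindin, and calretinin is known from mossy cells, newborn granule cells, some interneurons and Cajal-Retzius cells. Hippocalcin (Hpca), Hpcal1, neurocalcin delta (Ncald), Hpcal4 and visinin-like 1 (Vsnl1) are neuronal calcium sensors, N-myristoylated proteins that move to membranes when they bind calcium, and hippocalcin takes its name from the hippocampus. Necab1 belongs to a small neuronal family with an EF-hand region and a monooxygenase domain.

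The 5 sensors are near relatives in sequence, so the coding sequence of an EF-hand loop of each is shown to make their differences visible. The loops were read from GENCODE M21 transcripts (GRCm38) by the published EF-hand loop pattern in the reading frame. Shown is the first match of the pattern, at residues 73 to 84 in all 5; the first EF-hand of these sensors is known to be degenerate, so the match is not numbered as an EF-hand here. The sequences are given 5′ to 3′, with bases that differ from the loop of Hpca in capitals.
Hpca: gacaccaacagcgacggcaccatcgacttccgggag
Hpcal1: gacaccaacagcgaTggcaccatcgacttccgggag
Hpcal4: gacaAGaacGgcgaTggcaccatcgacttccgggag
Ncald: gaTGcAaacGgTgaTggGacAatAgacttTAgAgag
Vsnl1: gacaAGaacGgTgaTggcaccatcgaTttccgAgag
The Hpca loop lies at chr4:129118490-129118525 on the minus strand and the Hpcal1 loop at chr12:17786387-17786422 on the plus strand. The Hpcal4 loop lies at chr4:123189079-123189114 on the plus strand. The Ncald loop lies at chr15:37397183-37397218 and the Vsnl1 loop at chr12:11332127-11332162, both on the minus strand. Each is within 1 coding exon. The loop of Hpcal1 differed from that of Hpca at 1 of its bases and the loop of Ncald at 12. Over the whole coding sequence, Hpca shared 86.3% of aligned bases with Hpcal1 and 79.5% with Ncald, and Hpcal4 shared 82.1% with Vsnl1. The 2 calbindins shared 64.8%, while a calbindin and a sensor shared 48.7 to 51.6%, and Necab1 shared 43.8 to 51.5% with any other member. The first matching loops of the calbindins are shown in the same way, with bases of Calb2 that differ from Calb1 in capitals.
Calb1: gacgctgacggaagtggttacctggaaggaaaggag
Calb2: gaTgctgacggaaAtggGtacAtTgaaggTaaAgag
This loop is split in both calbindins by an intron, with its ends at chr4:15881468-15881983 on the plus strand for Calb1 and chr8:110156971-110168053 on the minus strand for Calb2. No run of 50 bases was shared between any pair of members, so a read of that length without errors falls on 1 member only. Genes outside the set did share such runs: 107 of the 1645 runs of Hpcal1 occurred in other genes on the same strand. Ncald shared 140 of its 8668 runs with Gm49397 on the same strand, and Hpca shared 18 of 3050 with genes on either strand. Necab1 and Ncald each overlap the exons of an annotated antisense gene (Gm11837 and Gm28221), and Hpca overlaps exons of Tmem54 on the other strand. These 3 partners have no row under their symbols in the count table and were not analysed here. The counting command in the study's protocol names no strand option, so reads from such a partner and from the member cannot be told apart.

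The totals of the replicates ran from 127253 to 933756 UMIs in fresh-frozen HCl and from 294445 to 1111804 in fresh-frozen TE. They were lower in fixed frozen TE (52800 to 307145) and paraffin TE (35932 to 223055). Levels are given as CPM, the counts per 1e+06 UMIs of a replicate, and describe 1 gene across samples; they are not set against each other between genes. The region labels were checked in every condition. The summed CPM of 4 CA1 markers (Wfs1, Fibcd1, Pou3f1, Mpped1) was higher in every CA1 replicate than in any other of its condition, and the same was true of 5 CA3 markers in CA3 and of 6 DG markers, Prox1 among them, in DG. Other cell types varied as well: the choroid plexus sum (Ttr, Folr1, Kl) reached 8915 CPM in 1 DG replicate of paraffin TE, where the median of the library was 151 CPM, and the oligodendrocyte sum of 3 markers had medians of 5737 CPM in CA1, 5705 in CA3 and 2528 in DG in fresh-frozen TE. Floors and intervals below cover counting error only: at 3 UMIs per replicate, the floor is 3.21 to 23.6 CPM in fresh-frozen HCl and 13.4 to 83.5 CPM in paraffin TE.

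**Figure D1:**
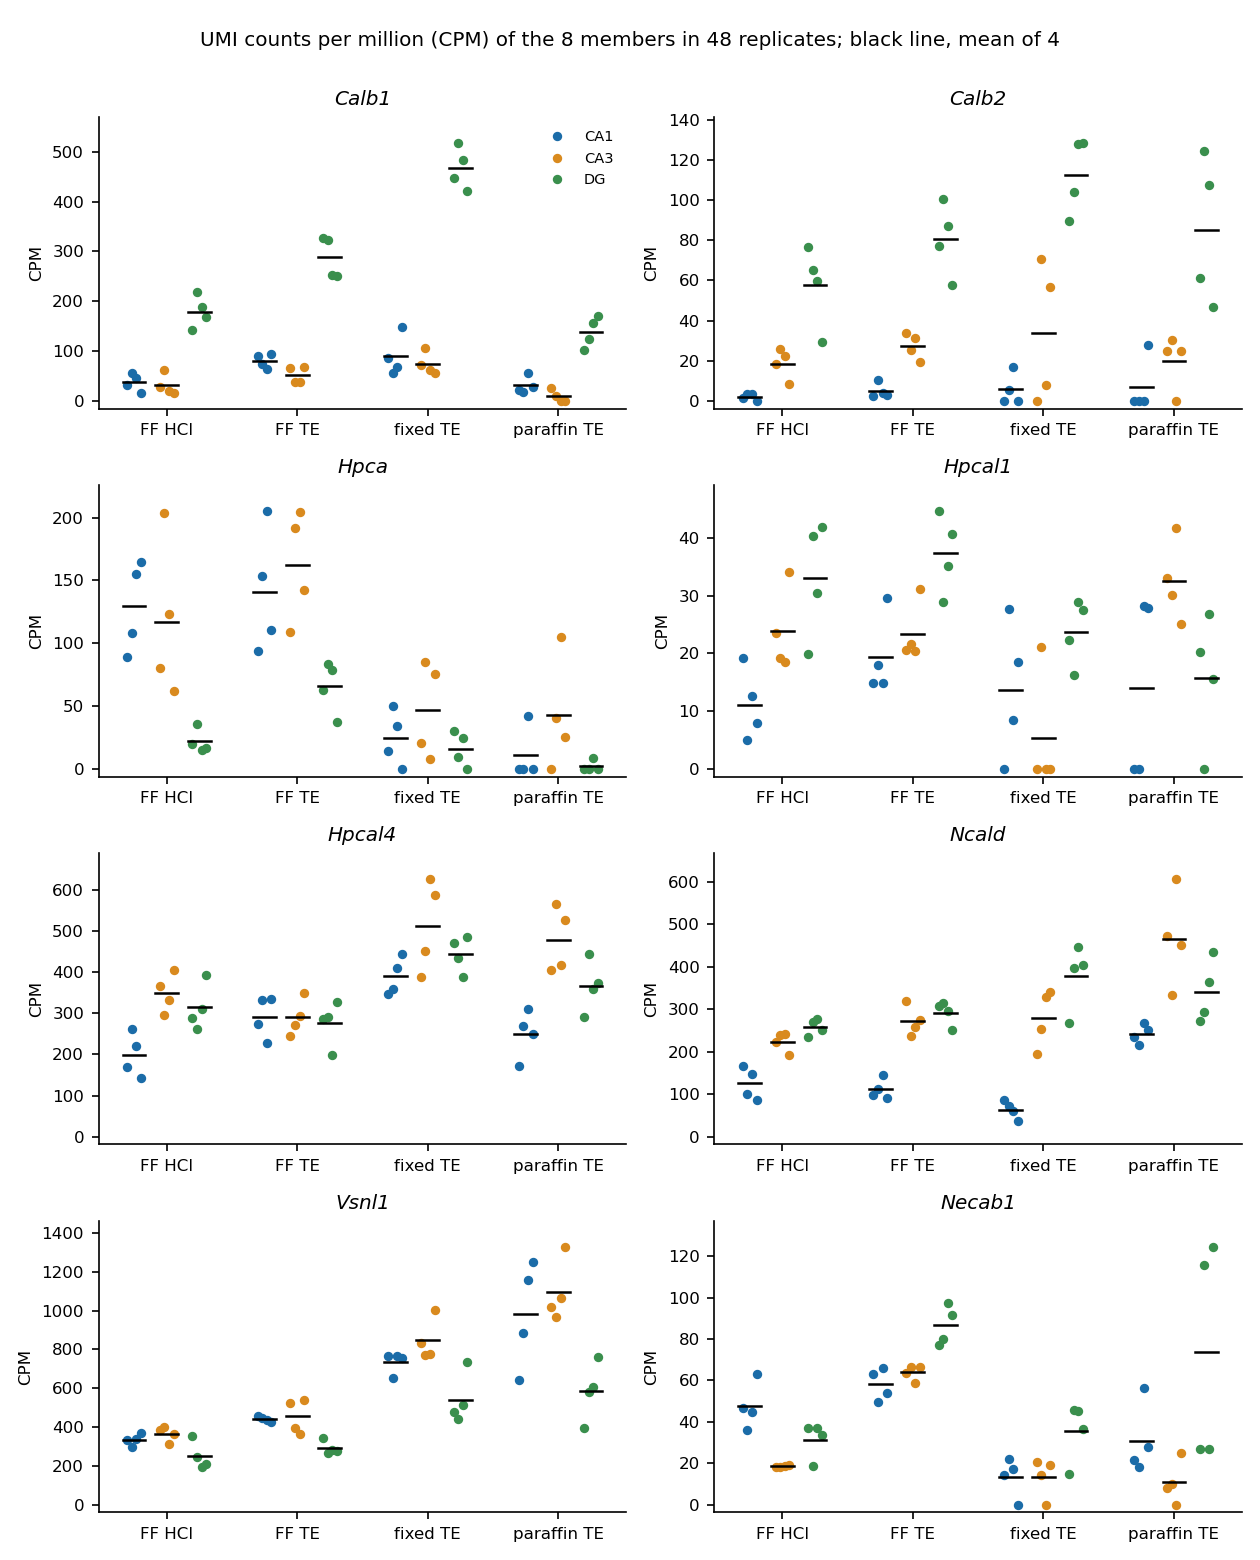
CPM (linear axes) of each of the 8 genes in the 48 replicates, grouped by condition (FF, fresh-frozen) and coloured by region, with the mean of 4 replicates as a black line. Calb1 and Calb2 sit highest in DG in all 4 conditions, Ncald is lowest in CA1, and Vsnl1 is higher in fixed frozen TE and paraffin TE than in the fresh-frozen conditions.

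The first question was how the members differ between the regions within a condition, starting with CA1 and DG. Calb1 and Calb2 were lower in CA1 than in DG in all 4 conditions, Ncald was called lower in CA1 in all but paraffin TE, where its CA1 replicates were also the lowest, Hpcal1 was lower in CA1 in the fresh-frozen conditions, and Hpca was higher in CA1 there. With calls at an adjusted p under 0.05 in edgeR's quasi-likelihood test, 6 of 8 members were called in fresh-frozen HCl, beside 17.0% of all 14893 genes tested, and 6 of 8 in fresh-frozen TE, beside 10.1%. In fixed frozen TE 3 of 8 were called, beside 8.14%, and in paraffin TE 2 of the 7 that passed the filter of 10 UMIs summed over the replicates, beside 3.29%. Hpca was the member that did not pass there. The median size of the log2 fold change over the members tested was 1.19, 1.03, 1.05 and 0.72 in fresh-frozen HCl, fresh-frozen TE, fixed frozen TE and paraffin TE, beside 0.50, 0.37, 0.45 and 0.51 over all genes tested. In paraffin TE the calls over all genes split into 78 higher and 217 lower in CA1, or 106 and 157 with DESeq2 size factors.

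CA3 against DG gave 4 members called of 8 in fresh-frozen HCl, beside 8.99% of all genes, and 4 in fresh-frozen TE, beside 7.91%. It gave 3 in fixed frozen TE, beside 9.27%, and 3 in paraffin TE, beside 3.21%. Calb1, Calb2 and Vsnl1 made up the 3 in both of these, and Calb1, Calb2, Hpca and Vsnl1 the 4 in both fresh-frozen conditions. The median size of the members' log2 fold change was 0.64, 0.67, 1.5 and 1.40 in the 4 conditions, beside 0.37, 0.34, 0.47 and 0.49 over all genes. CA1 against CA3 gave 4 of 8 in fresh-frozen HCl, beside 9.13%, 2 in fresh-frozen TE, beside 4.40%, and 1 in fixed frozen TE, beside 7.20%. The median size was 0.81, 0.28 and 0.48 in these, beside 0.38, 0.29 and 0.47 over all genes. In paraffin TE, where Calb2 did not pass the filter, 0 of 7 were called with edgeR, beside 2.36%; 2 of them, Hpcal4 and Ncald, had an unadjusted p under 0.05, and DESeq2 called 0. The 3 region comparisons of a condition share libraries, so their values are given side by side and are not independent. Regions and libraries coincide within a condition, and the p-values measure the spread between the 4 replicates of a library. Replicates of 2 regions that do not overlap are reported below for single members. Over all genes tested the share without overlap ran from 7.07% (CA1 and CA3, paraffin TE) to 18.3% (CA1 and DG, fresh-frozen HCl).

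**Figure D2:**
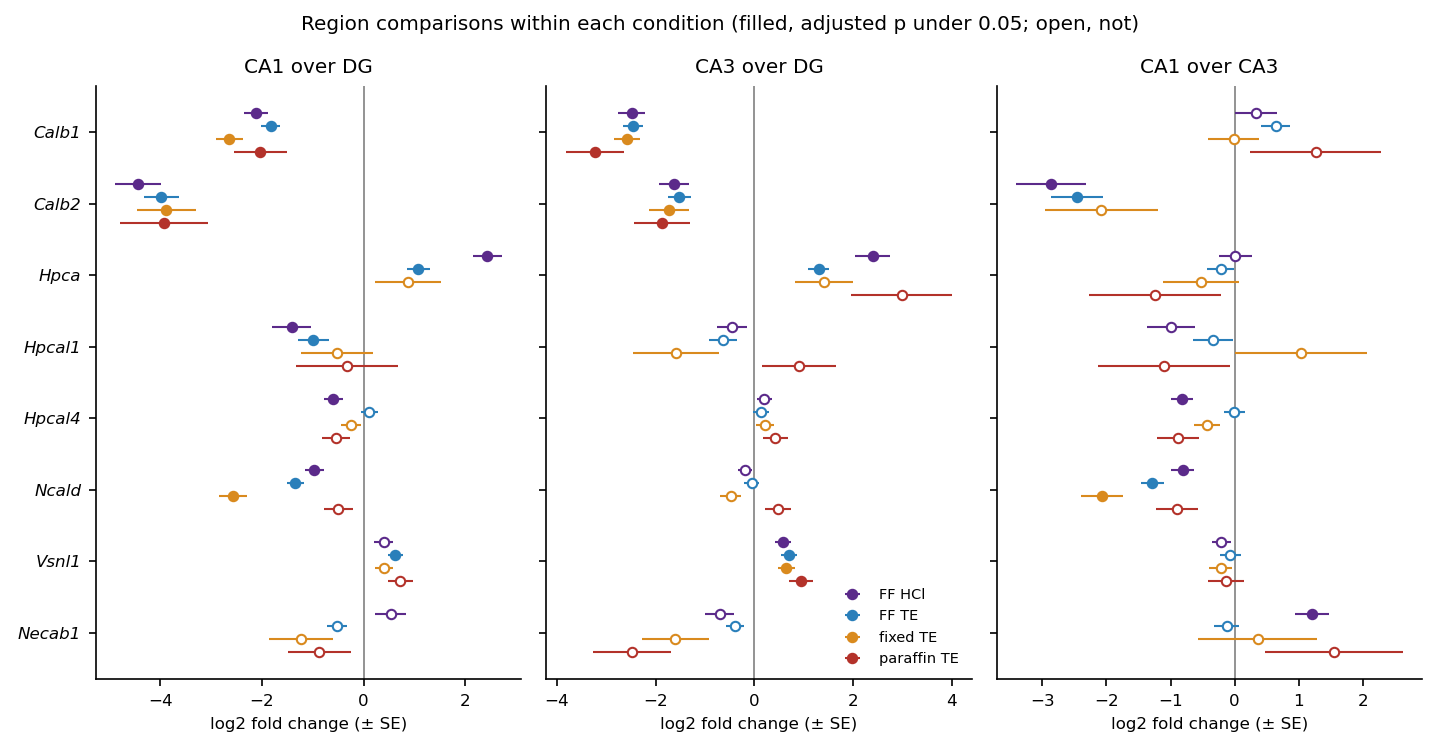
Log2 fold changes (± SE) of the 8 genes for CA1 over DG, CA3 over DG and CA1 over CA3 in each condition (FF, fresh-frozen), filled where the adjusted p was under 0.05 and open where it was not. Calb1 and Calb2 lie left of 0 and are filled in all 8 comparisons with DG, and Vsnl1 lies right of 0 in all 8 and is filled in 5 of them. Points for genes that did not pass the filter are left out.

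Calb1, the buffer known from granule cells, separated DG from both CA regions. In fresh-frozen TE its CPM was 251, 253, 322 and 327 in the DG replicates, 64.8, 73.8, 89.6 and 94.4 in CA1, and 37.5, 38.7, 66.3 and 68.4 in CA3. In fresh-frozen HCl it was 142, 167, 188 and 219 in DG, 15.7, 31.5, 46.0 and 55.7 in CA1, and 15.0, 19.8, 27.9 and 61.0 in CA3. All DG replicates were above all CA1 and CA3 replicates in both. Fixed frozen TE gave 422, 447, 483 and 518 in DG, with 55.3 to 148 in CA1 and 56.8 to 106 in CA3. Paraffin TE gave 102, 124, 157 and 171 in DG, 18, 21.3, 27.8 and 56.5 in CA1, and 0, 0, 10.1 and 24.8 in CA3. The groups again did not overlap, although Calb1 then rested on 75 UMIs in DG, 7 in CA1 and 4 in CA3.

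On the log2 scale, CA1 over DG was -2.12 ± 0.23 (SE), -1.83 ± 0.18, -2.65 ± 0.27 and -2.03 ± 0.52 for Calb1 in fresh-frozen HCl, fresh-frozen TE, fixed frozen TE and paraffin TE, and adjusted p was 2.68e-09, 1.03e-09, 1.53e-20 and 0.00633. For CA3 the values were -2.49 ± 0.27, -2.46 ± 0.21, -2.58 ± 0.26 and -3.23 ± 0.59, with adjusted p of 8.6e-07, 1.31e-09, 1.61e-20 and 7.46e-05. The folds thus ran from 3.56 to 9.39 across the 8 comparisons with DG. The CA1 call in paraffin TE was lost without the second CA1 replicate. CA1 and CA3 differed for Calb1 in no condition in the fit without pairing. In fresh-frozen TE, where replicates with the same number deviated together, the fit with the replicate number as a block gave 0.64 ± 0.18 for CA1 over CA3 at an adjusted p of 0.00818.

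Calb2, which encodes calretinin, was graded over the regions: highest in DG, lower in CA3 and close to the floor in CA1. In fresh-frozen TE the DG replicates had 57.7, 77.3, 87.2 and 101 CPM, the CA3 replicates 19.5, 25.2, 31.1 and 33.9, and the CA1 replicates 2.30, 2.70, 4.05 and 10.5. In fresh-frozen HCl they had 29.3, 59.7, 65.1 and 76.6 in DG, 8.21, 18.2, 22.2 and 25.7 in CA3, and 0, 1.37, 3.28 and 3.45 in CA1. No 2 regions overlapped for Calb2 in either fresh-frozen condition. In fixed frozen TE, DG had 89.5, 104, 128 and 128 CPM, CA3 0, 7.83, 56.8 and 70.6, and CA1 0, 0, 5.53 and 17.1. In paraffin TE, DG had 46.7, 61.0, 108 and 124 CPM, CA3 0, 24.8, 25.1 and 30.2, and CA1 0, 0, 0 and 27.8. DG stayed apart from both CA regions in these, while CA3 and CA1 overlapped.

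CA1 over DG was -4.44 ± 0.45, -3.98 ± 0.35, -3.88 ± 0.57 and -3.93 ± 0.87 (log2 ± SE) for Calb2 in the 4 conditions in the order above, with adjusted p of 4.97e-10, 6.37e-11, 1.8e-09 and 0.000834. The CA1 level rested on 6, 13, 3 and 1 UMIs over the 4 replicates. For the last 2 the pooled CPM was 15.8 times higher in DG in fixed frozen TE (exact 95% interval 5.22 to 77.9, from 3 and 89 UMIs) and 19.1 times higher in paraffin TE (3.28 to 770, from 1 and 50 UMIs). CA3 over DG was -1.62 ± 0.30, -1.52 ± 0.23, -1.73 ± 0.40 and -1.87 ± 0.57, with adjusted p of 0.000588, 3.84e-05, 0.000619 and 0.0499. The last of these was lost in 6 of 8 fits that left out 1 replicate. CA1 over CA3 was -2.86 ± 0.55 and -2.46 ± 0.41 in fresh-frozen HCl and TE, with adjusted p of 0.000568 and 0.000236; in fixed frozen TE it was not called (adjusted p = 0.164).

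Markers of other cells moved with Calb2 in part. The summed CPM of 4 habenula and thalamus markers (Tac2, Nwd2, Chrnb4, Tcf7l2) had medians of 609, 885, 393 and 731 in DG in the 4 conditions, 390, 450, 286 and 177 in CA3, and 109, 143, 75.6 and 89.4 in CA1, which is the order of Calb2. In paraffin TE, Tac2 and Chrnb4 were at 0 in CA1 and CA3, where the sums rested on 15 and 55 UMIs. In fixed frozen TE, Chrnb4 was at 0 in CA1 and Tac2 in CA3. The CA2 marker sum (Amigo2, Rgs14, Pcp4, Cacng5, Map3k15) had the same order, with medians of 521, 544, 1194 and 989 CPM in DG. Its medians were 345, 398, 700 and 395 in CA3, and 314, 319, 273 and 337 in CA1. Its CA1 and CA3 ranges overlapped in all but fixed frozen TE. Map3k15 was at 0 in all regions of fixed frozen TE and paraffin TE. The Cajal-Retzius sum (Trp73, Lhx1, Lhx5, Ndnf) had medians of 60.9, 68.0, 23.0 and 13.4 CPM in DG, 35.2, 31.6, 14.6 and 5.04 in CA3, and 27.2, 25.3, 23.0 and 0 in CA1. It was thus not higher in DG than in CA1 in fixed frozen TE, where the CA1 sum was 12 UMIs of Ndnf alone. In paraffin TE the sum rested on 1 gene in each region, and not on the same one. It was Ndnf in CA1 and DG, with 1 and 9 UMIs, and Trp73 in CA3, with 3 UMIs. Lhx5 had UMIs only in CA1 and DG of fresh-frozen HCl. The mossy cell markers Drd2 and Csf2rb2 gave at most 5 UMIs together in a library, and Drd2 was at 0 in all 3 regions of fresh-frozen TE. The immature granule neuron sum (Dcx, Sox11, Igfbpl1, Eomes) overlapped between DG and the CA regions in fresh-frozen HCl (125 to 218 CPM, beside 91.4 to 169) and fresh-frozen TE (211 to 273, beside 127 to 217), and it lay apart in DG in fixed frozen TE (199 to 309, beside 57.9 to 116) and paraffin TE (196 to 249, beside 70.5 to 126). The astrocyte sum of 3 markers had medians of 622, 923, 209 and 373 CPM in DG, 434, 471, 152 and 206 in CA3, and 277, 409, 190 and 238 in CA1. DG was highest in each condition, and CA1 was above CA3 in fixed frozen TE and paraffin TE, which is not the order of Calb2. The interneuron sum (Gad1, Gad2, Slc32a1, Sst, Npy, Vip) had medians of 1077, 920, 1093 and 1073 CPM in DG, 864, 1077, 771 and 688 in CA3, and 1253, 1133, 1147 and 931 in CA1. It was highest in DG in paraffin TE alone, and DG was above CA3 in all but fresh-frozen TE. The part of any of these cells in the Calb2 difference was not tested.

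Among the sensors, Hpca went the other way from Calb1. In fresh-frozen HCl it had 88.9, 108, 155 and 165 CPM in CA1, 61.5, 80.4, 123 and 203 in CA3, and 15.2, 16.7, 19.9 and 35.7 in DG. Fresh-frozen TE gave 94.2, 111, 154 and 205 in CA1, 109, 143, 192 and 205 in CA3, and 37.4, 63.0, 78.8 and 83.5 in DG. CA1 and CA3 overlapped, and both stood wholly above DG. The oligodendrocyte markers given above were also higher in CA1 and CA3 there, and their part was not tested. The log2 fold change over DG was 2.44 ± 0.28 and 1.08 ± 0.23 for CA1 (adjusted p = 1.16e-08 and 0.000865) and 2.40 ± 0.35 and 1.30 ± 0.21 for CA3 (4.52e-05 and 9.38e-05), in fresh-frozen HCl and TE. The Hpca contrasts with HCl and with TE were set against each other in the test of region by condition, which did not call a difference in the fit without pairing (adjusted p = 0.267) but did with the replicate block (0.00457). Replicates with the same number deviated together in 4 of the 6 region pairs of these conditions. The block was 1 effect per number shared by both conditions, however. Between the conditions, same-numbered replicates deviated together in CA3 and DG but not in CA1 (lowest r = 0.0289).

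In fixed tissue Hpca was scarce: 14, 19 and 13 UMIs over the 4 replicates of CA1, CA3 and DG in fixed frozen TE, and 3, 10 and 2 in paraffin TE. There the regions overlapped and no comparison was called. CA3 over DG had adjusted p of 0.117 in fixed frozen TE and 0.0926 in paraffin TE, and the pooled ratio in paraffin TE was 8.89 (exact 95% interval 1.89 to 83.4, from 10 and 2 UMIs). No region difference in Hpca was detectable by the test at this depth.

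Hpca and Calb1 can be read against each other within a replicate, with no scaling. In fresh-frozen HCl, Calb1 made up 86 to 92.5% of the sum of Calb1 and Hpca UMIs in DG, 8.70 to 34.0% in CA1 and 13.8 to 25.7% in CA3. In fresh-frozen TE the ranges were 76.3 to 87.1% in DG, 24 to 48.8% in CA1 and 15.5 to 37.8% in CA3. DG lay apart from the CA regions in both. In fixed frozen TE it was 93.8 to 100% in DG, 42.9 to 88.9% in CA3 and 52.6 to 100% in CA1, so that only CA1 overlapped DG. In paraffin TE it was 94.6 to 100% in DG, 0 to 100% in CA3 and 57.1 to 100% in CA1, so that both overlapped DG.

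**Figure D3:**
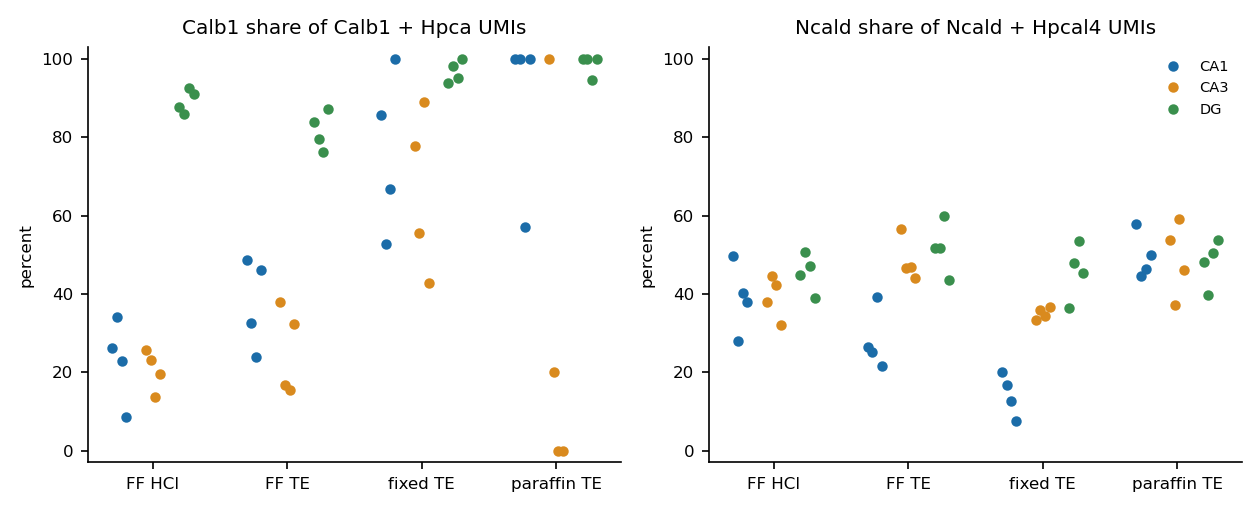
Share of Calb1 in the summed UMIs of Calb1 and Hpca (left) and of Ncald in the summed UMIs of Ncald and Hpcal4 (right), in percent, 1 point per replicate, by condition (FF, fresh-frozen) and region; a replicate with no UMI of either gene has no point. DG is above CA1 and CA3 on the left in both fresh-frozen conditions, and CA1 is below CA3 and DG on the right in fresh-frozen TE and fixed frozen TE.

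Vsnl1, a sensor with the same direction as Hpca, was higher in CA3 than in DG in all 4 conditions, by less. Its CPM in fresh-frozen TE was 424, 435, 447 and 456 in CA1, 367, 398, 523 and 541 in CA3, and 266, 278, 280 and 342 in DG. Paraffin TE gave 640, 882, 1158 and 1252 in CA1, 967, 1018, 1067 and 1328 in CA3, and 393, 578, 605 and 762 in DG. CA3 stood above DG without overlap in both. The oligodendrocyte sum was also higher in CA3 than in DG in the 4 conditions, with medians of 7225, 5705, 4477 and 10693 CPM in CA3 and 3129, 2528, 2005 and 9044 in DG, and its part was not tested. CA3 over DG was 0.58 ± 0.17, 0.70 ± 0.17, 0.65 ± 0.17 and 0.94 ± 0.25 for Vsnl1 in fresh-frozen HCl, fresh-frozen TE, fixed frozen TE and paraffin TE (adjusted p = 0.029, 0.00581, 0.00357 and 0.0152). The first of these calls was lost in 5 of 8 fits that left out 1 replicate and the last in 3. In the fit without pairing, CA1 over DG was called for Vsnl1 only in fresh-frozen TE, at 0.62 ± 0.15 (adjusted p = 0.00321), and its adjusted p was 0.146, 0.189 and 0.0715 in fresh-frozen HCl, fixed frozen TE and paraffin TE. With the replicate block it was also called in fixed frozen TE and paraffin TE, as given in the closing section. The lowest r between same-numbered replicates of CA1 and DG was 0.0854 and 0.0725 there, below the 0.1 taken as pairing. In paraffin TE all 4 replicates still correlated best with their own number.

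Since Hpca and Vsnl1 were both higher in CA3 than in DG, the first listed RefSeq promoter window of each is shown (GRCm38.p6, 250 bases before to 50 after a start site), with GGGCGG or its reverse complement, the GC box, in capitals.
Hpca, chr4:129121698-129121997, minus strand: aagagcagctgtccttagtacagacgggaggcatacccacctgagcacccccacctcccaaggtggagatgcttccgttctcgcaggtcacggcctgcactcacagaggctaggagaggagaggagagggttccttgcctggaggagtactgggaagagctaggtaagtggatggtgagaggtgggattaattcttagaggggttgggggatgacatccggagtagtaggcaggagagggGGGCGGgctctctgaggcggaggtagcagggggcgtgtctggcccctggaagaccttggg
Vsnl1, chr12:11436529-11436828, minus strand: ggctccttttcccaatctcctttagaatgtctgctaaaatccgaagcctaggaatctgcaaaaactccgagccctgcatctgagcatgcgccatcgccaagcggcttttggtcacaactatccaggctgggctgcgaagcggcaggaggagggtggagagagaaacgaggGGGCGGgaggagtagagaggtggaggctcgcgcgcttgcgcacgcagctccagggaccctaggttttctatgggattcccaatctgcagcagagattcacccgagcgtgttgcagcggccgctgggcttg
Both windows held 1 GC box and at least 1 E-box (CANNTG), and neither held TATAAA or TGACGTCA. GGGCGG was found on either strand in 35.7% of 32851 promoter windows, CANNTG in 72.3%, TATAAA in 13.6% and TGACGTCA in 1.79%. The other windows of these genes differed: the remaining Hpca windows held 4 and 0 GC boxes and the remaining Vsnl1 window 0. Of the members, Hpcal1 and Hpcal4 also had a window each, with 3 and 2 GC boxes, and neither gene was called between CA3 and DG.

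Ncald set CA1 apart from both other regions. In fresh-frozen TE it had 91.7, 98.8, 111 and 146 CPM in CA1, 237, 258, 276 and 320 in CA3, and 251, 295, 307 and 313 in DG. In fixed frozen TE it had 36.9, 59.7, 71.9 and 86.9 in CA1, 194, 254, 329 and 341 in CA3, and 268, 397, 404 and 445 in DG. CA1 was wholly below the others and CA3 and DG overlapped. CA1 over DG was -0.97 ± 0.19, -1.35 ± 0.17 and -2.57 ± 0.28 for Ncald in fresh-frozen HCl, fresh-frozen TE and fixed frozen TE (adjusted p = 0.000203, 1.86e-07 and 2.05e-17). CA1 over CA3 was -0.81 ± 0.18, -1.28 ± 0.18 and -2.07 ± 0.32 (0.00284, 1.69e-05 and 3.01e-08).

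Paraffin TE gave Ncald levels of 216, 235, 250 and 268 CPM in CA1, 332, 451, 472 and 607 in CA3, and 271, 293, 363 and 436 in DG. The CA1 replicates were again the lowest, and the differences were not called (adjusted p = 0.444 against DG and 0.149 against CA3). Of all genes tested there, 8.73% did not overlap between CA1 and DG, and 7.07% between CA1 and CA3. Between DG and CA3, Ncald was called in no condition, with adjusted p from 0.145 to 0.911. The test of region by condition did not call Ncald for fixed frozen TE against fresh-frozen TE (adjusted p = 0.122). With the replicate block it did (0.0422), although same-numbered replicates deviated together in fresh-frozen TE only. The block was shared by both conditions, between which the lowest r was 0.0162 in CA1, 0.0184 in CA3 and 0.0221 in DG. Set against Hpcal4 within a replicate, Ncald made up 7.69 to 20.0% of their summed UMIs in CA1 of fixed frozen TE, 33.3 to 36.7% in CA3 and 36.4 to 53.5% in DG. In paraffin TE that share was 44.4 to 57.9% in CA1, within the range of the other regions (37.1 to 59.2%). In fresh-frozen HCl the regions also overlapped, with 27.9 to 49.6% in CA1, 32.0 to 44.7% in CA3 and 39.0 to 50.7% in DG. Hpcal4 was itself lower in CA1 than in CA3 in both conditions, so this overlap does not show that Ncald was level. In paraffin TE Hpcal4 had 171 to 311 CPM in CA1 and 405 to 564 in CA3, a difference that was not called (adjusted p = 0.148).

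Hpcal1 was lower in CA1 than in DG in the fresh-frozen conditions. Its CPM in fresh-frozen HCl was 4.92, 7.86, 12.7 and 19.2 in CA1, 18.5, 19.3, 23.6 and 34.2 in CA3, and 19.9, 30.5, 40.3 and 41.9 in DG. In fresh-frozen TE it was 14.9, 14.9, 18.1 and 29.7 in CA1 and 29.0, 35.2, 40.8 and 44.7 in DG, which overlap. CA1 over DG was -1.42 ± 0.38 (adjusted p = 0.00746) and -0.99 ± 0.31 (0.0329) for Hpcal1, and the second call was lost in 6 of 8 fits that left out 1 replicate. In fixed frozen TE and paraffin TE, Hpcal1 rested on 3 to 18 UMIs per library and nothing was called.

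Hpcal4 was the member that varied least between regions in fresh-frozen TE, with 227 to 335 CPM in CA1, 245 to 350 in CA3 and 198 to 326 in DG, and adjusted p from 0.759 to 0.998. In fresh-frozen HCl its CA1 replicates had 141, 168, 221 and 262 CPM, all below the 296, 332, 366 and 406 of CA3, and DG had 262, 290, 311 and 394. CA1 was called lower there, at -0.82 ± 0.17 over CA3 (adjusted p = 0.00139) and -0.59 ± 0.19 over DG (0.0213). The second of these was lost without the first CA1 or the fourth DG replicate. For Hpcal4 the region by condition test between fresh-frozen HCl and TE had an adjusted p of 0.117, or 0.00526 with the replicate block. That block was shared by both conditions, with the limit given for Hpca.

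Necab1 was called between regions in 1 condition only. In fresh-frozen TE it had 49.7, 54.0, 63.2 and 66.2 CPM in CA1, 59.0, 63.4, 66.4 and 66.6 in CA3, and 77.3, 80.1, 91.7 and 97.3 in DG. DG stood above both without overlap, as did or fell 14.3% of all genes tested against CA1 and 12.3% against CA3. CA1 over DG was not called in the fit without pairing (adjusted p = 0.101) but was with the replicate block (-0.52 ± 0.18, adjusted p = 0.0306). In fresh-frozen HCl it had 36.1, 44.9, 46.5 and 62.9 CPM in CA1, 18.2, 18.2, 18.5 and 19.1 in CA3, and 18.6, 33.5, 36.8 and 36.9 in DG. CA1 was higher than CA3 there by 1.21 ± 0.27 (adjusted p = 0.00313). In fixed frozen TE and paraffin TE, Necab1 rested on 3 to 31 UMIs per library.

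The region by condition test asked whether regions differed from each other in one condition as they did in fresh-frozen TE. It called 1 member, Necab1, for fresh-frozen HCl (adjusted p = 0.0352), beside 1.19% of 18164 genes, and with the replicate block also Hpca and Hpcal4, as given above. For fixed frozen TE it called 0 of 8, beside 0.724% (1 had an unadjusted p under 0.05), and for paraffin TE 0 of 8, beside 1.14% (2 had). DESeq2 called 0 and 1 in these; the latter was Ncald, at an adjusted p of 0.0443. The CA1 over CA3 log2 fold change of Necab1 was higher in fresh-frozen HCl than in TE by 1.31 ± 0.32 (adjusted p = 0.0347). The call for Necab1 was lost in each of the 4 fits that left out 1 replicate number (adjusted p from 0.149 to 0.230).

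The second question was how fixation, embedding and permeabilization moved the members, over all 3 regions. Here the background is wide, and a shift of the median of all genes under each scaling is part of the comparison. Of 8 members, 5 were lower in fresh-frozen HCl than in fresh-frozen TE and none was higher, beside 30.6% of all genes called; 6 of 8 differed between fixed frozen TE and fresh-frozen TE, 3 in each direction, beside 48.7% (2505 genes higher and 5228 lower in fixed frozen TE). Between paraffin TE and fixed frozen TE, 2 of 8 were lower in paraffin TE, beside 28.0%. The median log2 fold change over all genes was 0.10, -0.39 and 0.05 in these 3 comparisons and moved to 0.24 with library totals alone in the first, to -0.19 with DESeq2 in the second and to 0.22 with DESeq2 size factors in the third. All genes called split into 2945 higher and 2605 lower with HCl (4139 and 1836 with library totals), and into 1666 higher and 1753 lower in paraffin TE (2085 and 1419 with library totals, 2353 and 1231 with DESeq2 size factors). The median over the members was -0.56, 0.19 and -0.13. The first 2 comparisons share the fresh-frozen TE libraries. Library and condition coincide, so a difference in library preparation cannot be told apart from the condition. The fits over 3 regions also counted same-numbered replicates of these regions as independent, which can make the p-values between conditions too small.

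HCl permeabilization gave lower levels of Necab1, Calb1, Hpca, Calb2 and Vsnl1 than TE. Necab1 fell by 1.34 ± 0.15 on the log2 scale (adjusted p = 5.51e-10), with 77.3 to 97.3 CPM in DG with TE and 18.6 to 36.9 with HCl. Calb1 fell by 0.89 ± 0.15 (adjusted p = 3.94e-06), Hpca by 0.72 ± 0.17 (0.000791), Calb2 by 0.65 ± 0.19 (0.00627) and Vsnl1 by 0.47 ± 0.10 (0.000182). Within single regions the difference in Calb1 was called in CA1 (-1.12) and DG (-0.81), that in Necab1 in CA3 (-1.90) and DG (-1.62), and that in Hpca in DG alone (-1.71), with an adjusted p of 0.225 in CA1. Hpcal4 was called lower in CA1 alone (-0.68, adjusted p = 0.00522). Hpcal1, Hpcal4 and Ncald were not called (adjusted p = 0.218, 0.364 and 0.0713).

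Between fixed frozen TE and fresh-frozen TE the sensors moved in both directions. Vsnl1 rose by 0.75 ± 0.11 against fresh-frozen TE (adjusted p = 3.3e-09), to 652, 756, 767 and 768 CPM in CA1 from 424 to 456, and was called in each region alone. Hpcal4 rose by 0.58 ± 0.12 (1.55e-05). Hpca fell by 2.05 ± 0.24 (adjusted p = 2.8e-12), a 4.14-fold difference, and did so in CA1 (-2.17), CA3 (-1.92) and DG (-2.03) alone. Necab1 fell by 1.58 ± 0.23 (9.56e-09) and was called lower in each region alone. Calb1 rose by 0.48 ± 0.15 (0.00506), called in DG alone at 0.71, while CA1 alone gave -0.09, and the pooled call was lost without replicate 3. Hpcal1 fell by 0.77 ± 0.31 (0.0365), a call lost in 3 of 4 fits that left out 1 replicate number. Calb2 and Ncald were not called (adjusted p = 0.168 and 0.963), though Ncald was lower in CA1 alone (-0.82, adjusted p = 0.0419).

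Between paraffin TE and fixed frozen TE the largest member difference was in Calb1. It fell by 1.90 ± 0.23 against fixed frozen TE (adjusted p = 1.44e-13), a 3.74-fold difference, from 422 to 518 CPM down to 102 to 171 in DG. Hpcal4 fell by 0.42 ± 0.15 (0.0269), which was lost with library totals alone (-0.29, adjusted p = 0.13) and in 3 of 4 fits that left out 1 replicate number. The other 6 members were not called, with adjusted p from 0.0582 for Ncald (0.01 with library totals) to 0.758 for Hpcal1. In CA1 alone Ncald was higher in paraffin TE, by 1.82 (adjusted p = 0.000119), where the 4 replicates went from at most 86.9 to at least 216 CPM; in DG alone it was not called (-0.31, adjusted p = 0.309).

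**Figure D4:**
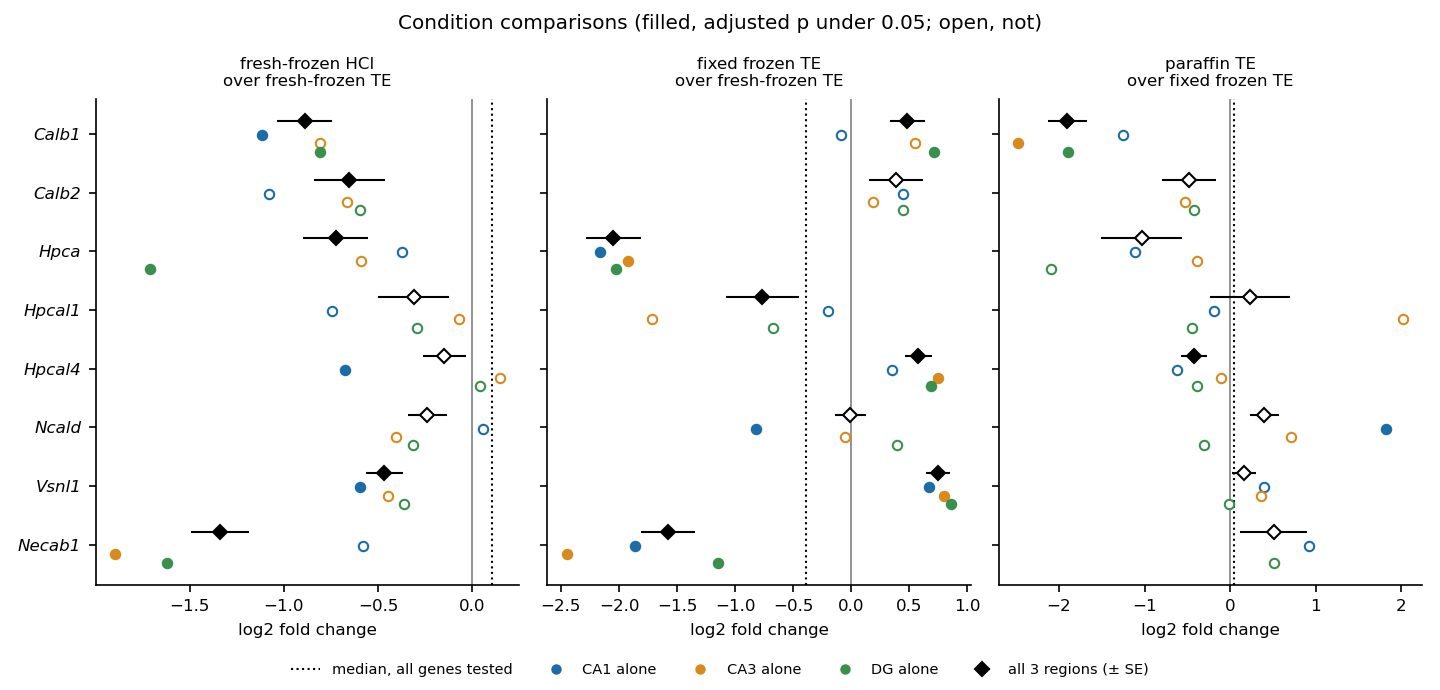
Log2 fold changes between conditions, from the fit over the 3 regions (diamonds, ± SE) and from each region alone (circles), filled where the adjusted p was under 0.05; the dotted line is the median of all genes tested. Hpca, Necab1 and Vsnl1 keep 1 direction in all 3 regions between fixed frozen TE and fresh-frozen TE, and Ncald in CA1 lies apart from CA3 and DG in both comparisons with fixed frozen TE.

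Across the 12 libraries, after centring within each condition, Calb1 and Vsnl1 had opposite profiles (Pearson r = -0.97 on log2(CPM + 10)) and Calb1 and Hpca likewise (-0.88), while Calb1 and Calb2 went together (0.79). These values are descriptions over 12 libraries of 3 regions, and the libraries differ in depth. Their totals ran from 209136 UMIs in CA1 of paraffin TE to 3407753 in CA3 of fresh-frozen HCl. Among the 9006 genes whose mean count reached 5, the 3 most like Calb1 were Spsb1 (0.98), ENSMUSG00000097344 (0.98) and Gm17571 (0.98). Calb2 was closest to ENSMUSG00000096954 (0.98), Slc39a6 (0.98) and Zic1 (0.97), and Hpca to Atl1 (0.97), Uqcc2 (0.95) and Morf4l2 (0.94). Vsnl1 was closest to Cend1 (0.97), Tecpr1 (0.97) and Asns (0.97), and Ncald to Slc7a14 (0.97), Kctd4 (0.95) and Acvr1c (0.95). Hpcal1 had Cebpb (0.95), Mapkbp1 (0.95) and Elp2 (0.93). Hpcal4 had Letmd1 (0.97), Tmcc2 (0.97) and Ube2l3 (0.96), and Necab1 had Smarcad1 (0.97), Abhd2 (0.94) and Mrgbp (0.92).

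Of 20 other EF-hand genes with a row in the table, 11 to 18 passed the filter in a comparison. CA1 against DG called 2 higher and 2 lower of 16 tested in fresh-frozen HCl, and 2 and 0 of 16 in fresh-frozen TE. It called 2 and 2 of 13 in fixed frozen TE, and 0 and 1 of 12 in paraffin TE. Over all genes tested, 17.0, 10.1, 8.14 and 3.29% were called in these conditions. Cabp7, which encodes a calcium-binding protein of the Golgi, was higher in CA3 than in DG in all 4 conditions, by 0.92, 0.93, 1.29 and 1.13 (log2; adjusted p = 0.00673, 0.000575, 0.000353 and 0.02), the only one of the 20 called there in more than 2. Its levels in fresh-frozen TE were 254 to 271 CPM in CA3 and 95.4 to 183 in DG. CA1 was below CA3 for Cabp7 in fresh-frozen TE, fixed frozen TE and paraffin TE (-0.85, -1.30 and -3.37). Against DG, CA1 was higher for Cabp7 in fresh-frozen HCl (1.49) and lower in paraffin TE (-2.36). Pvalb, parvalbumin of fast-spiking interneurons, was higher in CA1 than in DG in fresh-frozen TE (1.6) and fixed frozen TE (1.75), and so was Caln1 (0.94 and 0.89). Necab3 was lower in CA1 than in DG in fresh-frozen HCl (-2.24) and fixed frozen TE (-2.54), and Cabp1 was higher in CA3 than in DG in fresh-frozen HCl (1.23) and paraffin TE (2.25).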

How the data were processed

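The authors made the deposited table of UMI counts, raw counts per gene and replicate, with CEL-seq2 libraries from PIC. The submitters' processing notes name UMI-tools 1.0.0, HISAT2 2.1.0, featureCounts 1.6.4 and DESeq2 1.20.0 and the build GRCm38; the annotation release and a strand setting are not given in the sources used here. UMIs had 6 bases, so a count saturates at 4096; the highest count of a member, 442, would rise by 5.82% if corrected for this. Groups came from the sample titles; the series' design text names CA2 where titles and methods name CA3.

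Genes whose counts in a fit summed to 10 or more were tested with edgeR 4.0.16 (R 4.3.3, TMM scaling, quasi-likelihood F-test, Benjamini-Hochberg adjustment over all genes of the fit). Regions were compared within a condition on the 8 replicates of the 2 regions. Conditions were compared with region as a covariate, and the region by condition test was the interaction in the same kind of fit. These fits counted same-numbered replicates of the 3 regions as independent. Where such replicates deviate together, as in fresh-frozen TE, p-values between conditions can be too small. CPM was UMIs divided by the replicate's total. Named genes were the members, other EF-hand genes called between the same 2 regions in at least 2 conditions with 1 sign, and the 3 genes most like each member. The members and lists were chosen with earlier results of these data known. A gene of the CA1 marker list is not reported here, and the sum leaves it out.

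Alternatives were DESeq2 1.42.0, other scalings and filters, all 3 regions in the fit, thinning to 35932 UMIs, a UMI correction, leaving out replicates, each region alone and a replicate block. Same-numbered replicates deviated together (every r over 0.1) in the 3 region pairs of fresh-frozen TE (lowest r = 0.18) and in CA3 and DG of fresh-frozen HCl (0.228), and in no other region pair; where the numbers paired the samples, blocked values stand beside the member calls they change, and others are in the closing section. With the block, the genes called in these 4 comparisons rose from 1420 to 2262 (CA1 and DG), 1138 to 1946 (CA3 and DG) and 640 to 1222 (CA1 and CA3) in fresh-frozen TE, and from 1363 to 2619 in fresh-frozen HCl. The scripts were tested on simulated counts with known folds.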

Additional observations from a re-analysis of the deposited data

Results flagged for a closer look

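In 6 of the 96 groups of 4 replicates, 1 replicate lay far from the other 3. About 1 group in 20 does so by chance where values vary continuously, a rate that does not apply to 4 of these, in which only 1 replicate had any UMI. Calb2 in CA1 of paraffin TE was at 27.8 CPM in 1 replicate and at 0 in the other 3, Hpca was at 42.4 CPM in 1 replicate of CA1 and at 8.97 CPM in 1 replicate of DG of paraffin TE, and Hpcal1 was at 21.2 CPM in 1 replicate of CA3 of fixed frozen TE. Hpcal1 in CA3 of fresh-frozen TE had a highest replicate of 31.3 CPM, beside 20.4, 20.6 and 21.6. Vsnl1 in CA1 of fixed frozen TE had a lowest replicate of 652 CPM, beside 756, 767 and 768.

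The CA1 over CA3 log2 fold change of Necab1 differed between fresh-frozen HCl and fresh-frozen TE by 1.31 (edgeR's quasi-likelihood test of the interaction, adjusted p = 0.0347).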

How the results depend on the processing

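Of the 51 member folds called between regions or conditions, 49 kept their direction under all alternatives that gave a value, 42 kept their call in each fit that left out 1 replicate, and 17 kept it under all alternatives that gave a value. The 2 that turned were Ncald in CA1 over CA3 of fresh-frozen HCl, 0.58 after thinning, and Calb1 in fixed frozen TE over fresh-frozen TE, -0.088 in CA1 alone. Thinning every replicate to the smallest total kept 16 of the 45 calls that could be refitted; by construction it leaves fewer UMIs. It left 1 member called for CA1 over DG in fresh-frozen HCl, 2 in fresh-frozen TE and 1 in paraffin TE, 1 for CA3 over DG in each of fresh-frozen HCl, fresh-frozen TE and fixed frozen TE, and 0 for CA1 over CA3 in both fresh-frozen conditions. Thinned, 1 was called between fresh-frozen HCl and TE, beside 647 of 9568 genes. The thinned fits called 3 between fixed frozen and fresh-frozen TE, beside 2568 of 8876, and 0 for region by condition. In paraffin TE, DESeq2 and edgeR's own filter each left 1 member for CA1 over DG, no filter left 1 for CA3 over DG, and edgeR's own filter gave 1 for CA1 over CA3; leaving out replicates gave 1 to 3 for CA1 over DG and 1 to 3 for CA3 over DG. Regions alone called 3 (CA1), 1 (CA3) and 3 (DG) between fresh-frozen HCl and TE, beside 3074 of 14801, 2080 of 15373 and 2169 of 14102 genes. Between paraffin TE and fixed frozen TE they called 1 each, beside 972 of 7736, 936 of 8230 and 2077 of 10212. In that comparison no filter also gave 1, beside 3263 of 23673, and leaving out replicate numbers gave 1 to 2, beside 2287 to 2920 genes. For region by condition in fresh-frozen HCl, leaving out replicate numbers gave 0; DESeq2 called 1 member for paraffin TE. The cause of these changes was not tested. With the replicate block, region by condition called 3 members (Hpca, Hpcal4 and Necab1, adjusted p = 0.00457, 0.00526 and 0.00633) for fresh-frozen HCl and 1 (Ncald, 0.0422) for fixed frozen TE. No member call between regions or conditions was lost under the block. Between conditions and for region by condition the block was 1 effect per number shared by both conditions, so the block does not cover pairing within 1 condition. Where not every r between same-numbered replicates was over 0.1, the block added Vsnl1 for CA1 over DG in fixed frozen TE (adjusted p = 0.0161) and paraffin TE (0.00218). It also added Necab1 for CA3 over DG in paraffin TE (adjusted p = 0.0252) and Ncald between fresh-frozen HCl and TE (0.0291). Between these last 2 conditions same-numbered replicates deviated together in CA3 and DG (lowest r = 0.259 and 0.171) but not in CA1 (0.0289), and all 4 replicates correlated best with their own number in CA1 and DG of paraffin TE. Over all genes, DESeq2 called 1621 for CA1 over DG in fresh-frozen HCl beside 2526, and in fixed frozen TE 385, 482 and 292 beside 764, 867 and 597 (CA1 over DG, CA3 over DG, CA1 over CA3), and in paraffin TE 110, 149 and 89 beside 295, 301 and 177. edgeR's own filter gave 501 and 142 for CA1 over DG in fixed frozen TE and paraffin TE. Thinned, 69 to 252 genes were called between regions, 647, 2568 and 1442 between conditions beside 5550, 7733 and 3419, and 26, 14 and 14 for region by condition beside 216, 115 and 184. With the block the last 3 became 753, 242 and 279, and with DESeq2 size factors 110 in paraffin TE. Hpca, Hpcal1 and Necab1 had 2 to 31 UMIs per library in fixed tissue, which limits what could be detected for them; Hpca and Necab1 were also lower in CPM in fixed frozen TE than in fresh-frozen TE.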
